A study of Mus musculus with 9 samples.

Results

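The genes of the cytosolic ribosome were followed in mouse bone marrow cells that expressed an NCOA2 fusion. Members were the table rows named Rplp0, Rplp1, Rplp2 or Rpsa, or named Rpl or Rps with a digit, without the 66 rows marked as pseudogenes (-ps) and the 9 Rps6k kinase genes. This rule uses names and a minimum of 10 normalized counts in at least 3 libraries. It matched 90 names, of which 86 passed the minimum, out of 17266 genes in the table and 13750 genes tested. Of the 86 members, 42 encode proteins of the large (60S) subunit body, 3 the acidic stalk of that subunit and 31 the small (40S) subunit. Another 9 are paralogs or retrogenes (Rpl7l1, Rpl22l1, Rpl36al, Rpl37rt, Rpl39l, Rps3a2, Rps4l, Rps27l and Rps27rt). The remaining member, Rps19bp1, is no ribosomal protein: its product binds RPS19 and is also known as active regulator of SIRT1. The 4 names below the minimum were Rpl23a, Rpl3l, Rpl6l and Rps3a3, with highest values of 11.47, 6.17, 6.11 and 12.6 normalized counts in any library.

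Each group had 3 libraries. One carried MigR1-ETV6-NCOA2-IRES-GFP, another MigR1-KAT6A-NCOA2-IRES-GFP, and the third the empty MigR1-IRES-GFP retrovirus. ETV6 is a transcription factor, KAT6A a histone acetyltransferase and NCOA2 a coactivator of nuclear receptors. In all groups the donors were 6-week-old female C57B/6 mice, and lineage-negative marrow cells were infected, grown for 5 days in RPMI with IL-3, IL-6 and SCF, sorted for GFP and sequenced from polyadenylated RNA. The cells kept their own Etv6, Kat6a and Ncoa2 genes, and the fusion transcripts were not measured here. Nothing in the labels tells whether the 3 replicates of a group stem from different mice, infections or cultures. A p-value here sets the difference between groups against the spread of libraries within groups, and that spread may be only technical. Libraries held 17.1 to 20.4 M recovered reads. Progenitor genes were present in the sorted cells, with Kit at 1230 ± 128 normalized counts with ETV6-NCOA2, 736 ± 229 with KAT6A-NCOA2 and 3115 ± 596 with empty vector (SD, n = 3 each). Kit does not stand for all 8 progenitor genes listed. Against empty vector, 4 of them were higher and 4 lower with ETV6-NCOA2, and 2 were higher and 6 lower with KAT6A-NCOA2. The macrophage gene Spp1 was among the most abundant transcripts and took 1.25%, 2.86% and 2.68% of the normalized counts with ETV6-NCOA2, 2.99%, 3.91% and 3.57% with KAT6A-NCOA2, and 0.543%, 2.07% and 0.914% with empty vector, where replicate 2 stood highest. In bulk RNA, fewer cells of a type and less RNA per cell cannot be told apart.

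A ribosome holds close to equal numbers of each core protein, and mammalian cells make these proteins from genes spread over the genome. Their mRNAs belong to the TOP class: transcription starts at a C that is followed by a run of pyrimidines, and mTORC1, acting through LARP1 and the 4E-BPs, controls how well such mRNAs are translated and how stable they are. In blood formation the dose of ribosomal proteins matters, since loss of 1 copy of RPS19, RPL5 or RPL11 in humans causes Diamond-Blackfan anaemia. Unassembled RPL5 and RPL11 bind MDM2 and thereby raise p53. Ribosomal protein genes have also left many processed pseudogenes, whose sequences stay close to the parent mRNA.

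The 86 members lay on 19 chromosomes, with 14 of them on chromosome 7. Start sites were available for 65 members in RefSeq's GRCm38.p6 annotation, and 14 of these (21.5%) began with C and at least 5 pyrimidines at an annotated start, against 813 of all 27025 genes in that table (3.01%). None of the 69 mitochondrial ribosomal protein genes with an entry did so. Windows of 4 members are shown because they illustrate the TOP start in 3 members that fell with KAT6A-NCOA2 and in Rps6, whose phosphorylation is the classic readout of the S6 kinases. Each window holds 20 bases before the start and 10 from it, read 5′ to 3′ on the gene's own strand, and capitals mark the part of the pyrimidine run that lies inside the window.
Rpl14 (chr9:120571497-120571526, plus strand): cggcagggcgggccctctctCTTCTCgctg
Rps15a (chr7:118116138-118116167, minus strand): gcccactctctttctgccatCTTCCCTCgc
Rps18 (chr17:33955656-33955685, minus strand): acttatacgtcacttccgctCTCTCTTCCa
Rps6 (chr4:86857358-86857387, minus strand): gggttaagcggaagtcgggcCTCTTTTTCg
The share of members with the run was 20% (3 of 15) among those that fell with KAT6A-NCOA2 and 22% (11 of 50) among the others. A run was counted only where it began at the annotated base, so one that began beside it, as in Rpl18, was missed. In the 300 bases from 250 before to 50 after the start, read on both strands, the letters CCGGAAG, which ETS factors such as ETV6 can bind, stood in 26 of 65 members (40%). They stood in 9.93% of all genes and in 37.7% of the mitochondrial ribosomal protein genes. Among members that fell with KAT6A-NCOA2 the share was 20% (3 of 15), against 46% (23 of 50) of the others. AAGATGG, the core letters of YY1, stood in 15.4% of members against 7.28% of all genes, and TATAAA in 10.8% against 15.7%. These are matches of letters in a window and not measured binding.

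The members' levels spanned a wide range although their proteins are used in near equal numbers. Over the 9 libraries, 43 members averaged at least 1000 normalized counts, 27 between 100 and 1000, and 16 less than 100. The 10 highest members held 51.6% of the members' summed counts. Rpl4, a 60S protein that lines the exit tunnel, was highest at 21927 normalized counts, and the retrogene Rps27rt was lowest at 10.2. Per kilobase (kb) of the annotated principal transcript, the 4 highest members were Rplp1 (18312 normalized counts per kb), Rps15 (16808), Rpl4 (14257) and Rpl8 (11940). Rplp1 encodes an acidic stalk protein, and the product of Rps15 sits in the head of the 40S subunit. The 5 lowest were Rpl39l (14 per kb), Rpl24 (18.4), Rps6 (23.7), Rps27rt (27.3) and Rpl21 (28.1). The median level per length was 1149 per kb over all members, 1260 for the 60S proteins with the stalk, 1587 for the 40S proteins and 265 for the 78 mitochondrial ribosomal protein genes. Among the 76 ribosomal proteins proper the highest level per length was 996 times the lowest, against 143 times among the mitochondrial ribosomal protein genes. These lengths run from 345 to 5179 bases, the longest being those of Rps15a and Rps20, and the median member level was 549 per kb when the length of all annotated exons was used.

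Several members known for their part in blood disease or signalling were barely counted. Rps6 had 16.7, 19.1 and 17.5 normalized counts with ETV6-NCOA2, 18.3, 19.97 and 18.7 with KAT6A-NCOA2, and 24.9, 21.8 and 30.2 with empty vector. Rpl5, which carries 5S rRNA into the large subunit, had 66.9, 113 and 65.8 with ETV6-NCOA2, 75.4, 88.3 and 72.5 with KAT6A-NCOA2, and 106, 70.5 and 113 with empty vector. Its partner Rpl11 had 65.8, 68.9 and 57.6 with ETV6-NCOA2, 60.1, 70.4 and 43.2 with KAT6A-NCOA2, and 64.0, 54.0 and 68.4 with empty vector. The Rps6 libraries of both fusions all lay below those of empty vector, while the Rpl5 and Rpl11 libraries overlapped. Rps19, a 40S head protein, was counted at 3112, 2669 and 2672 with ETV6-NCOA2, 2481, 2459 and 2489 with KAT6A-NCOA2, and 2988, 2626 and 2936 with empty vector. None of these 4 genes passed the test with either fusion. Per length, Rps19 stood at 3507 normalized counts per kb, against 41.9 for Rpl5, 73.7 for Rpl11 and 23.7 for Rps6.

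Exact sequence shared with other genes moved with these levels. For each member's principal transcript, the share of its 50-base windows that also occur in a transcript of another annotated gene was computed. Its median was 51.5% over the 76 ribosomal proteins proper and 2.84% over the mitochondrial ribosomal protein genes. Rps3 shared 2.96% of its windows, whereas Rps6 shared 84.6% with 14 other genes, Rpl24 81.7% and Rpl5 93.8%. Across the 76 genes, Spearman's rho between the shared percentage and the level per length was -0.43 and Pearson's r with the log2 level was -0.41, a description over genes of the same 9 libraries. With 100-base windows rho was -0.58 and r was -0.55. Of 39 genes that shared at least 50% of their windows, 10 were under 200 normalized counts per kb and the median was 894, while of 37 genes below 50% there were 5 under 200 and the median was 2127. By this percentage there were exceptions in both directions. Rplp1 shared 60% and had the highest level per length, and Rpl21 shared 26.2% and had one of the lowest. The 1856-base transcript of Rpl21 nevertheless shared windows with 82 other genes, against a median of 10.5 over the 76 genes. Transcript length itself had a rho of -0.03 with the level per length. How the authors treated reads that fit several genes is not given in the sources used here, so the levels of members with shared sequence are uncertain and the part of that sequence in them was not tested.

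The rows marked -ps, which the rule leaves out, held little. Their 66 rows summed to 1335 normalized counts on average, and 3 of them stood above the gene they are named after: Rpl23a-ps5 (39.0, against 5.67 for Rpl23a), Rpl36a-ps2 (58.7, against 53.7 for Rpl36a) and Rps6-ps4 (22.5, against 20.8 for Rps6). Among the members, Rpl37rt and Rps4l are annotated as transcribed processed pseudogenes and Rps3a2 as a processed pseudogene.

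**Figure D1:**
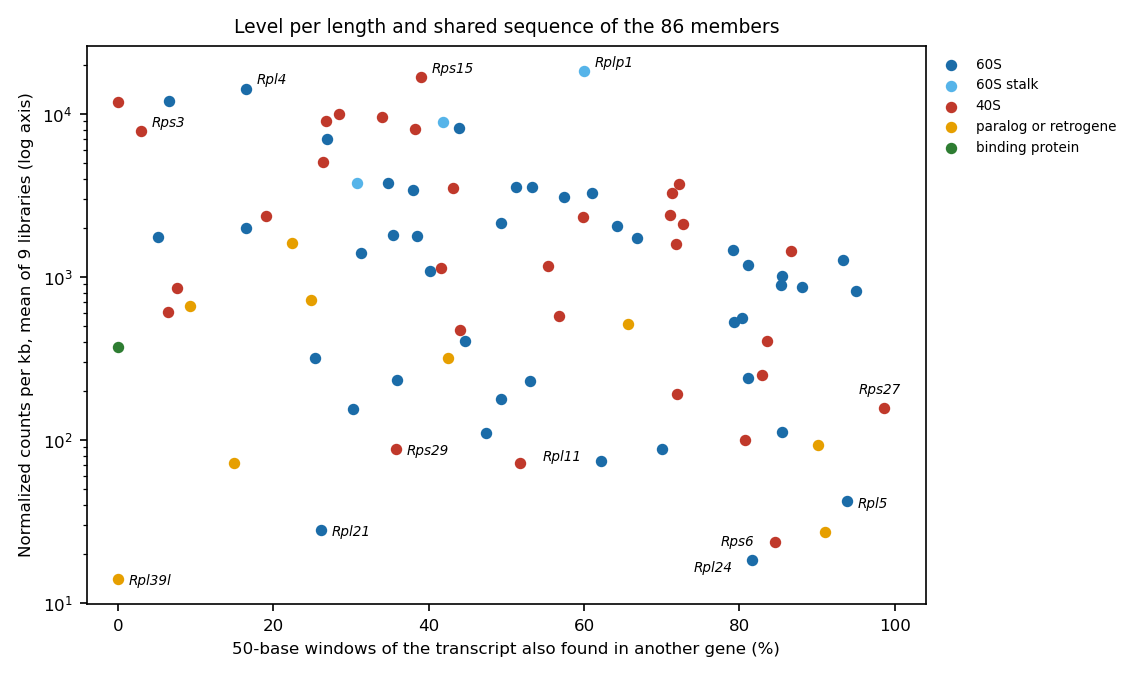
Level per length of the 86 members (normalized counts per kb of principal transcript, mean of 9 libraries, log axis) against the percentage of the transcript's 50-base windows also found in another gene. Rps3 and Rpl4 lie at the upper left and Rpl24, Rps6 and Rpl5 at the lower right, with Rplp1 high at 60% and Rpl21 low at 26.2%.

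With KAT6A-NCOA2 most ribosomal protein transcripts were slightly lower than with empty vector on the authors' scaling. The fitted difference was below 0 for 82 of 86 members, against 47.8% of all genes tested, and above 0 for 4, against 52.2%. The median was -0.21 on the log2 scale (-13.3%), against 0.02 for all genes. It became 0.002 when libraries were scaled to the members' own mean level, which sets their mean difference to 0 by construction. In 61 members the 3 KAT6A-NCOA2 libraries all lay below the 3 empty vector libraries, which 21.7% of all genes did, and in no member did they all lie above, which 21.2% did. By limma's test with Benjamini-Hochberg adjustment over all genes, 23 of 86 members fell and none rose, against 13.7% of all genes that fell and 11.6% that rose (25.4% together). At an unadjusted p below 0.05 there were 44 members, all of them lower, against 38.6% of all genes in either direction. The quartiles of the members' differences lay 0.10 apart on the log2 scale, against 0.43 for all genes. edgeR and DESeq2 on the recovered reads each called 26 members lower, including all 23, and neither called one higher. Of all 13750 genes edgeR called 1960 lower and 1484 higher, and DESeq2 1936 and 1682.

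The calls depended on single libraries while the direction did not. The number that fell was 32, 13 and 18 without ETV6-NCOA2 replicates 1, 2 and 3, which changes only the shared estimate of the spread. Of all 13750 genes, 1996, 1742 and 1769 fell in those fits. The members' number was 7, 2 and 2 without KAT6A-NCOA2 replicates 1, 2 and 3, and 1, 35 and 6 without empty vector replicates 1, 2 and 3. Over all genes the number lower without a KAT6A-NCOA2 or empty vector library was 1694, 1208 and 1243, and 1148, 2150 and 1430, against 1889 with all libraries. When a KAT6A-NCOA2 or empty vector library other than empty vector replicate 2 was left out, the members' number thus shrank by a larger factor than that of all genes. In these 9 fits 79 to 82 members had a difference below 0, and the median lay between -0.24 and -0.19. Rpl14 was called in all 9 of them and Rpsa in 7. With the libraries scaled to the members' own mean level, 1 member fell (Rpl27, -0.47, limma adjusted p = 0.029) and 1 rose (Rps19bp1, 0.32, limma adjusted p = 0.0325). The calls on the authors' scaling thus describe the members relative to the other genes.

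**Figure D2:**
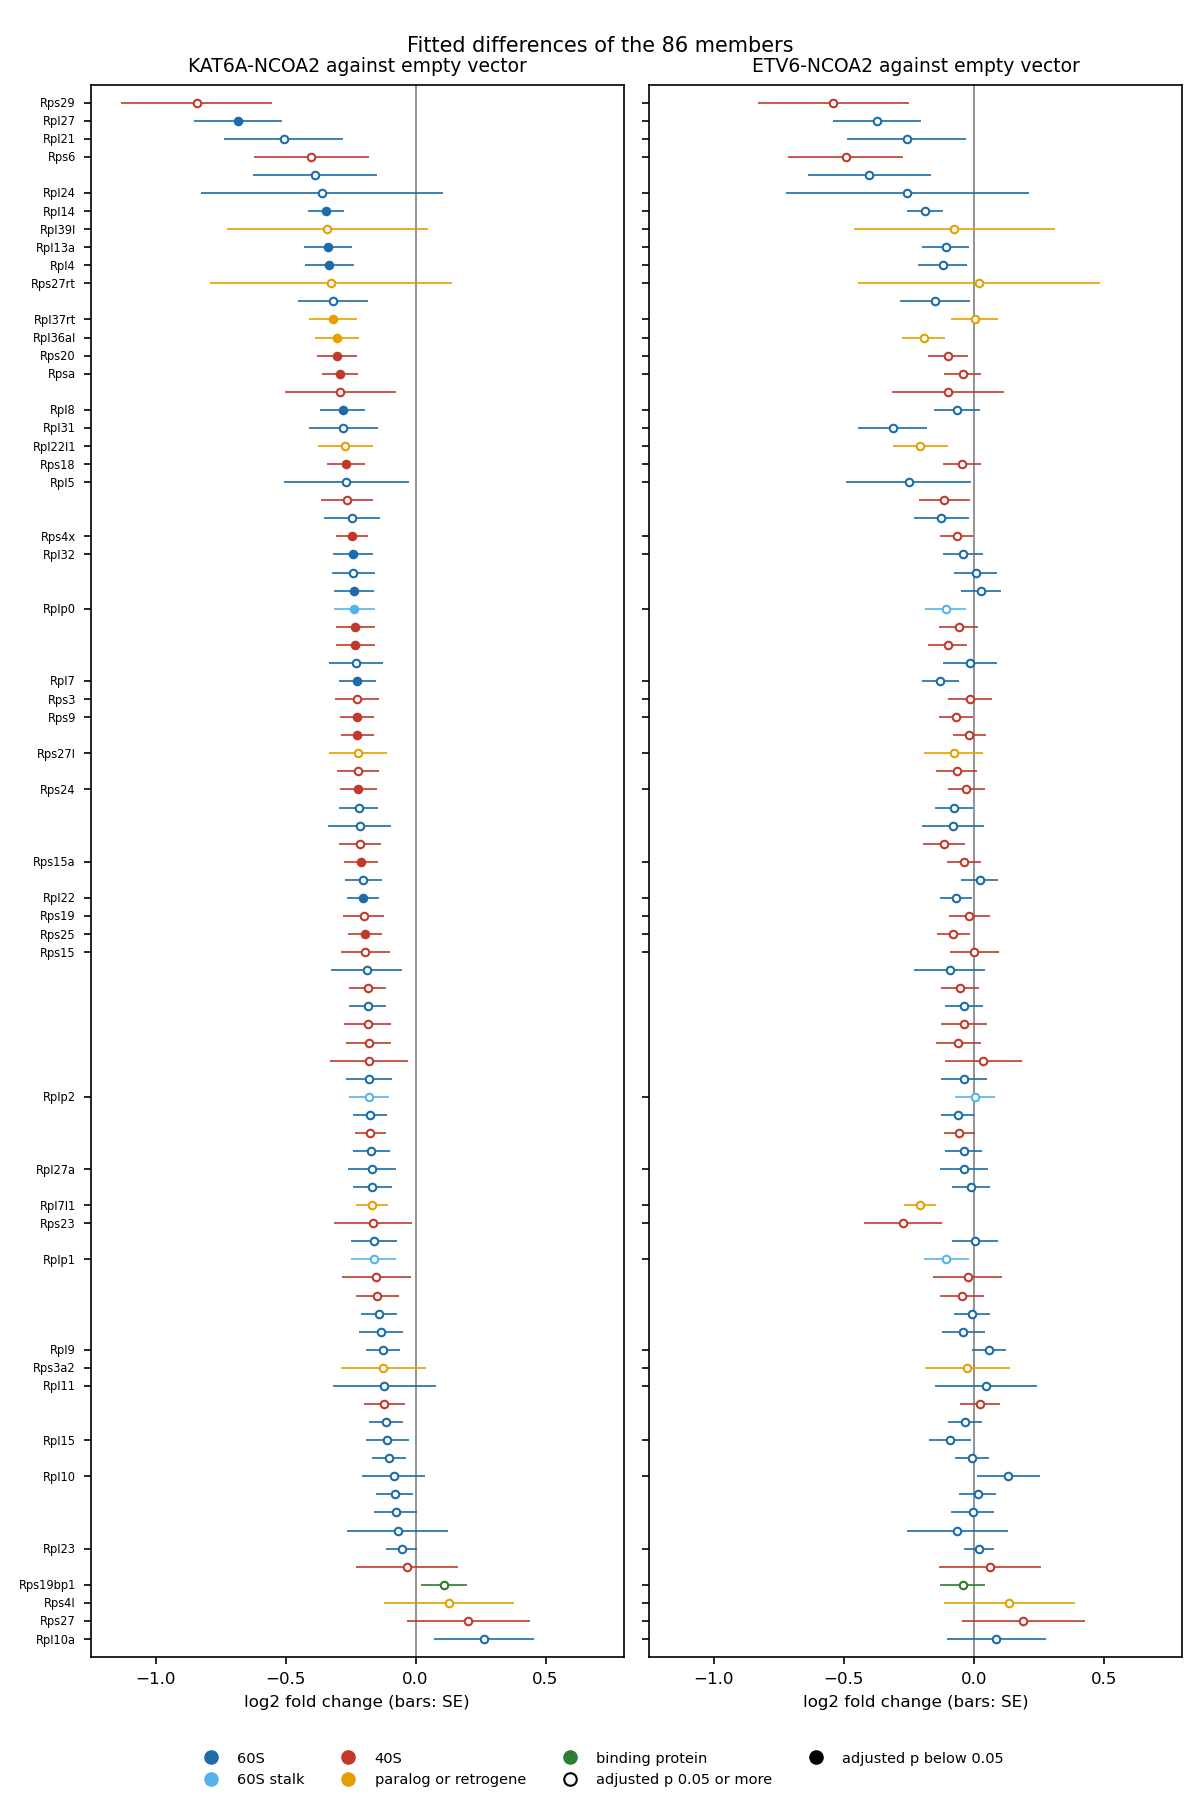
Fitted log2 fold changes of the 86 members with KAT6A-NCOA2 (left) and ETV6-NCOA2 (right) against empty vector, ordered by the left panel and labelled for the members described, with bars for the standard error and filled points for an adjusted p below 0.05. On the left, on the authors' scaling, 82 members lie below 0 and 23 are filled. On the right 67 lie below 0 and none is filled. Scaling libraries to the members' mean, which sets their mean difference to 0 by construction, puts the medians at 0.002 and 0.02.

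Among the proteins of the 60S body and stalk, 10 of 45 fell with KAT6A-NCOA2 (13.7% of all genes did), 31 of 45 had libraries apart and lower (21.7% of all genes), and the median difference was -0.19. Rpl14, on chromosome 9 at positions 120571444 to 120574654 (GRCm38), had 2184, 2122 and 2048 normalized counts with ETV6-NCOA2, 1871, 1778 and 2069 with KAT6A-NCOA2, and 2490, 2378 and 2379 with empty vector. All 6 fusion libraries were below the 3 empty vector libraries. Its log2 difference with KAT6A-NCOA2 was -0.34 ± 0.069 (SE; limma adjusted p = 0.0057), the lowest adjusted p of the members. Rpl27 had the largest difference that passed, -0.68 ± 0.17 (limma adjusted p = 0.0151). Its values were 146, 167 and 170 with ETV6-NCOA2, 153, 112 and 126 with KAT6A-NCOA2, and 260, 168 and 207 with empty vector, so that the empty vector libraries were themselves spread widely. Rpl4 had 23746, 22010 and 21163 with ETV6-NCOA2, 19703, 19146 and 18860 with KAT6A-NCOA2, and 25022, 22861 and 24831 with empty vector. The KAT6A-NCOA2 libraries of Rpl4 were the 3 lowest of the 9, and its difference was -0.33 ± 0.094 (limma adjusted p = 0.0265). Rpl8, a neighbour of the peptidyl transferase centre, averaged 12577 ± 995 with ETV6-NCOA2, 10816 ± 342 with KAT6A-NCOA2 and 13144 ± 743 with empty vector (SD, n = 3 each), and fell with KAT6A-NCOA2 (-0.28). Rpl13a, whose product also takes part in the GAIT complex that silences inflammatory mRNAs in human monocytes, fell by 0.34 on the log2 scale. Other 60S genes that fell included Rpl32 (-0.24), Rpl7 (-0.22) and Rpl22 (-0.20).

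The stalk recruits elongation factors to the large subunit, and Rplp0 is its base. Rplp0 had 12462, 11777 and 11854 normalized counts with ETV6-NCOA2, 11239, 10778 and 11032 with KAT6A-NCOA2, and 13676, 12214 and 13066 with empty vector. It fell with KAT6A-NCOA2 (-0.24 ± 0.078, limma adjusted p = 0.0482). Rplp1 and Rplp2, which form dimers on Rplp0, had differences of -0.16 and -0.18 that did not pass, although their KAT6A-NCOA2 libraries also lay below those of empty vector.

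Among the 40S proteins, 11 of 31 fell with KAT6A-NCOA2 (13.7% of all genes did), 26 of 31 had libraries apart and lower (21.7% of all genes), and the median difference was -0.21. Rpsa, which is also known as a laminin receptor, had 1005, 950 and 894 normalized counts with ETV6-NCOA2, 818, 804 and 775 with KAT6A-NCOA2, and 1033, 926 and 978 with empty vector. The KAT6A-NCOA2 libraries were the 3 lowest, and the difference was -0.29 ± 0.07 (limma adjusted p = 0.0133). Rps20 had 3361, 3245 and 3051 with ETV6-NCOA2, 2898, 2618 and 2875 with KAT6A-NCOA2, and 3618, 3156 and 3577 with empty vector, a difference of -0.30 ± 0.076 (limma adjusted p = 0.0167). Rps18 had 856, 876 and 791 with ETV6-NCOA2, 720, 712 and 728 with KAT6A-NCOA2, and 942, 844 and 820 with empty vector. Its KAT6A-NCOA2 libraries lay close together and below the other 6, with a difference of -0.27 ± 0.073 (limma adjusted p = 0.0226). The X-linked Rps4x averaged 3688 ± 86.6 with ETV6-NCOA2, 3259 ± 29.4 with KAT6A-NCOA2 and 3865 ± 228 with empty vector (SD, n = 3 each) and fell with KAT6A-NCOA2 (-0.24). Other 40S genes that fell included Rps9 (-0.22), Rps24 (-0.22), Rps15a (-0.21) and Rps25 (-0.20).

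**Figure D3:**
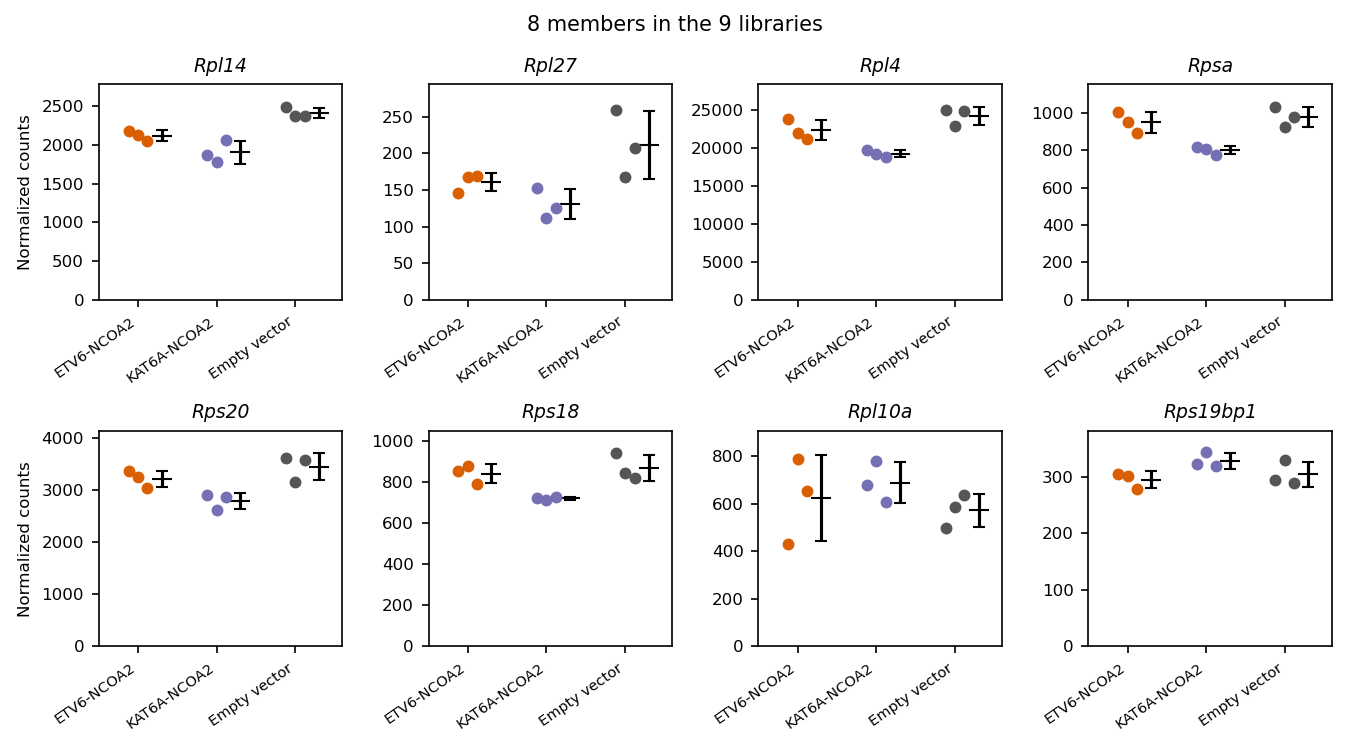
Normalized counts of 8 members in each library, with each group's mean and SD (bars, n = 3). In Rpl4, Rpsa, Rps20 and Rps18 the KAT6A-NCOA2 points are the 3 lowest of the 9, whereas the groups of Rpl10a overlap and those of Rps19bp1 overlap between KAT6A-NCOA2 and empty vector.

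Of the 9 paralogs and retrogenes, 2 fell with KAT6A-NCOA2 (22.2%, against 13.7% of all genes) and the median difference was -0.27. Rpl36al, an expressed copy of Rpl36a, had 970, 905 and 815 normalized counts with ETV6-NCOA2, 895, 819 and 780 with KAT6A-NCOA2, and 1069, 965 and 1039 with empty vector, a difference of -0.30 (limma adjusted p = 0.0244). The retrogene Rpl37rt had 232, 233 and 233 with ETV6-NCOA2, 183, 182 and 194 with KAT6A-NCOA2, and 254, 223 and 221 with empty vector, a difference of -0.32 (limma adjusted p = 0.0294). In both genes the 3 KAT6A-NCOA2 libraries lay below those of empty vector. That held for 4 of the 9 (44.4%), against 21.7% of all genes. The others did not pass: Rpl39l, which in mice is known from germ cells, differed by -0.34, Rps27rt by -0.33, Rpl22l1 by -0.27, the p53 target Rps27l by -0.22, Rpl7l1 by -0.17, Rps3a2 by -0.12 and Rps4l by 0.13. Rpl22 fell by 0.20, beside a difference of -0.27 (limma adjusted p = 0.0845) in its paralog Rpl22l1, which RPL22 is known to repress in mice.

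Only 4 members had a fitted difference above 0 with KAT6A-NCOA2, and none passed. Rpl10a had 432, 790 and 653 normalized counts with ETV6-NCOA2, 680, 779 and 607 with KAT6A-NCOA2, and 498, 588 and 636 with empty vector, so its groups overlapped (0.26, limma adjusted p = 0.34). Rps19bp1 had 305, 301 and 278 with ETV6-NCOA2, 322, 343 and 318 with KAT6A-NCOA2, and 293, 330 and 289 with empty vector (0.11, limma adjusted p = 0.39). Rps27, the member with the most shared sequence (98.7%), differed by 0.20 and Rps4l by 0.13. At the other end, Rps29 had the most negative difference, -0.84, without passing (limma adjusted p = 0.0562). It had 20.9, 41.1 and 33.9 with ETV6-NCOA2, 23.4, 19.97 and 32.7 with KAT6A-NCOA2, and 49.7, 35.7 and 52.4 with empty vector.

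Members with few counts were measured less precisely. Of 56 members that averaged at least 500 normalized counts, 21 fell with KAT6A-NCOA2 (37.5%, against 13.7% of all genes), 47 had libraries apart and lower (83.9%, against 21.7%) and the median difference was -0.20. Of 30 members below 500, 2 fell (6.67%, below the share of all genes) and the median was -0.23. None of the 16 members below 100 passed. Their median SE was 0.232, against 0.0759 for the members at 500 or more and 0.119 for all genes. The shares of all genes given here were not matched for level. The median was also alike by shared sequence, -0.21 for the 44 members that shared less than 50% of their windows and -0.19 for the 42 others. Of the 44 members 16 fell (36.4%), and of the 42 others 7 fell (16.7%), against 13.7% of all genes. Between the empty vector libraries, log2 values varied least for Rpl23 (SD 0.014), Rpl22 (0.0147) and Rpl27a (0.0176), and most for Rps27 (0.50), Rps27rt (0.857) and Rpl24 (0.884).

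**Figure D4:**
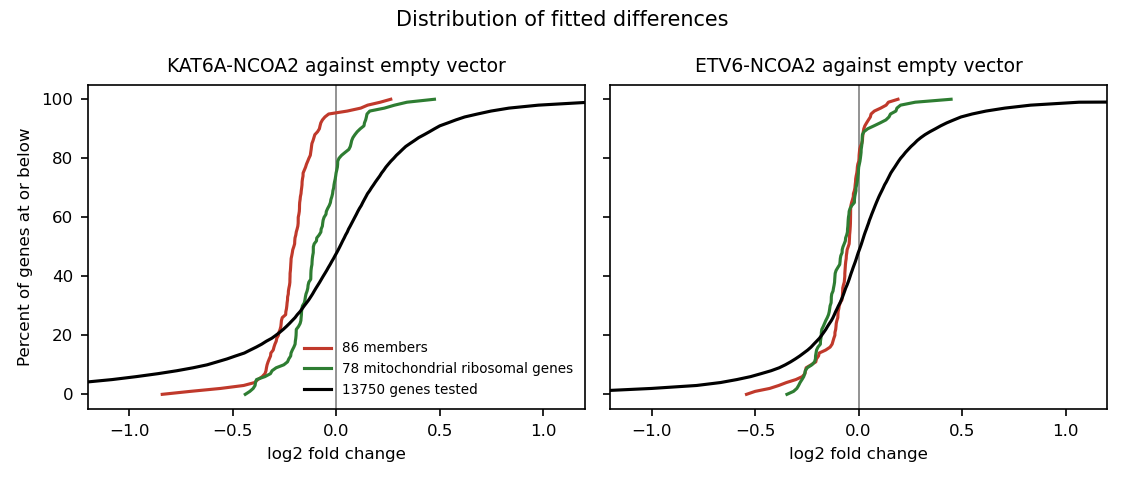
Cumulative distribution of fitted log2 fold changes with KAT6A-NCOA2 (left) and ETV6-NCOA2 (right) against empty vector, for the 86 members, the 78 mitochondrial ribosomal protein genes and all 13750 genes tested. On the left, on the authors' scaling, the members' curve climbs steeply around its median of -0.21. It does so left of the mitochondrial ribosomal genes (median -0.11) and of all genes (0.02). Scaled to the members' mean, which builds in a value near 0, the members' median is 0.002.

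As a sum, the members took 1.21% ± 0.0625 of all normalized counts with ETV6-NCOA2, 1.009% ± 0.0315 with KAT6A-NCOA2 and 1.34% ± 0.103 with empty vector (SD, n = 3 each). The libraries lay at 1.265%, 1.235% and 1.145% with ETV6-NCOA2, 1.045%, 0.996% and 0.987% with KAT6A-NCOA2, and 1.404%, 1.224% and 1.4% with empty vector. KAT6A-NCOA2 libraries were below all others, while ETV6-NCOA2 and empty vector overlapped because of empty vector replicate 2. Within a library the 60S and 40S sums kept step, with a ratio of 60S to 40S counts between 1.17 and 1.21 in all 9. Counted over members, the lowest of the 9 values stood in KAT6A-NCOA2 replicate 2 for 41 members and in replicate 3 for 23, and the highest in empty vector replicate 1 for 28 members and in ETV6-NCOA2 replicate 1 for 25.

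**Figure D5:**
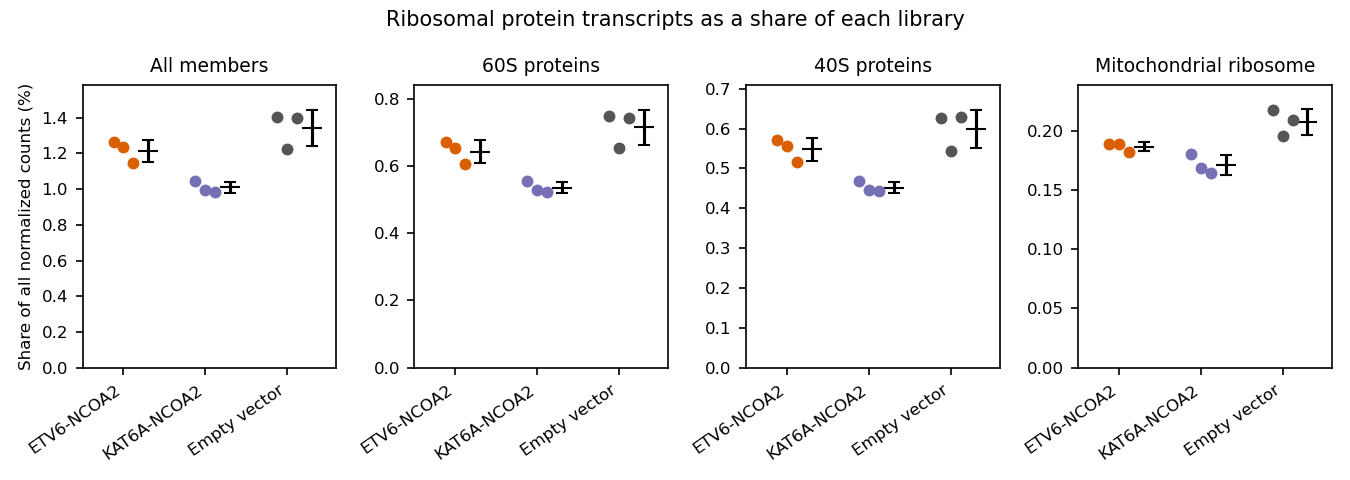
Share of all normalized counts taken by the 86 members, the 45 proteins of the 60S subunit with its stalk, the 31 proteins of the 40S subunit and the 78 mitochondrial ribosomal protein genes, by library, with each group's mean and SD (bars, n = 3). In each panel the KAT6A-NCOA2 libraries lie below the other 6.

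With ETV6-NCOA2 no member passed the test. By limma 0 of 86 rose and 0 fell against empty vector, beside 1.02% and 1.82% of all genes (2.84% together). At an unadjusted p below 0.05 there were 5 members, all lower, against 20.6% of all genes in either direction, and edgeR called none. DESeq2 called 1, Rpl7l1 (-0.21, DESeq2 adjusted p = 0.0468), and gave no adjusted p for 3 members. Of all genes DESeq2 called 370 higher and 646 lower, and edgeR 158 and 348. The fitted difference was below 0 for 67 of 86 members, against 48.3% of all genes, and above 0 for 19, against 51.7%. Its median was -0.05 (-3.42%), and 0.02 when libraries were scaled to the members' mean level, which builds in a value near 0. In 6 members the ETV6-NCOA2 libraries all lay below those of empty vector (7.0% of members, against 12.5% of all genes): Rpl14, Rpl15, Rpl22l1, Rpl31, Rpl7l1 and Rps6. In none did they all lie above, which 9.01% of all genes did. The ribosome biogenesis paralog Rpl7l1 had 1634, 1583 and 1678 normalized counts with ETV6-NCOA2, 1721, 1656 and 1658 with KAT6A-NCOA2, and 2003, 1822 and 1830 with empty vector (limma adjusted p = 0.095). Rpl14 differed by -0.19 (95% interval -0.34 to -0.04, limma adjusted p = 0.15) and Rpl31, near the tunnel exit, by -0.31 (limma adjusted p = 0.22). On the higher side the lowest p-values belonged to Rpl10 (0.13), which is needed to join the subunits, Rpl9 (0.06) and Rps27 (0.19), with limma adjusted p-values of 0.59, 0.67 and 0.70. Rpl4 differed by -0.12 (95% interval -0.33 to 0.09) and Rpsa by -0.04 (95% interval -0.20 to 0.11). Both comparisons with empty vector use the same 3 empty vector libraries.

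Set directly against KAT6A-NCOA2, ETV6-NCOA2 had higher fitted values for 78 of 86 members, against 48.5% of all genes, and lower ones for 8, against 51.5%, with a median difference of 0.14 (10.3%). In 33 members the ETV6-NCOA2 libraries all lay above those of KAT6A-NCOA2, against 14.4% of all genes, and in 1 member, Rps19bp1, all below, against 12.8%. By limma none of the members rose or fell, beside 2.84% of all genes that rose and 0.247% that fell (3.09% together). At an unadjusted p below 0.05 there were 22 members, all higher with ETV6-NCOA2, against 18.9% of all genes in either direction, and edgeR called none. Equally numbered libraries of these groups deviated together, and with the replicate number as a block 1 member passed, Rpsa (0.25, limma adjusted p = 0.0483, without the block 0.088). DESeq2 called 1 other member, Rps3 (0.21, DESeq2 adjusted p = 0.0412), a 40S protein at the mRNA entry site. Without empty vector replicate 2, limma called 1 member higher, beside 677 of all genes. Of all genes the block called 732 higher and 251 lower, DESeq2 633 and 160, and edgeR 353 and 29. Another low p-value on that side was that of Rpl37rt (0.32, limma adjusted p = 0.0943). On the lower side they were those of Rps19bp1 (-0.15), Rpl10a (-0.18) and Rps23 (-0.11), with limma adjusted p-values of 0.38, 0.67 and 0.75.

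Genes that work with the ribosomal proteins were counted from lists drawn up beside the members. Among ribosomal proteins under other symbols, Rack1, a 40S scaffold for signalling kinases, fell with KAT6A-NCOA2 (-0.34, limma adjusted p = 0.0194), and Fau (-0.23) did not pass. Rack1 had 17748, 16450 and 16034 normalized counts with ETV6-NCOA2, 14610, 14408 and 14590 with KAT6A-NCOA2, and 19343, 17022 and 18801 with empty vector. The KAT6A-NCOA2 libraries of Rack1 were again the 3 lowest. Of 15 other genes long known for TOP mRNAs, 6 fell with KAT6A-NCOA2 and none rose, with a median of -0.23 and 13 whose libraries lay apart and lower. These were the ribosome assembly and histone chaperone genes Npm1 (-0.65) and Nap1l1 (-0.34), the elongation factor subunits Eef1g (-0.63), Eef1b2 (-0.30) and Eef1d (-0.28), and the RNA-binding Hnrnpa1 (-0.61). The abundant elongation factor genes Eef1a1 (-0.16) and Eef2 (-0.22) did not pass, nor did Tpt1, whose difference was 0.19. Npm1 had 3315, 3331 and 3161 normalized counts with ETV6-NCOA2, 2675, 2682 and 2547 with KAT6A-NCOA2, and 4346, 3992 and 4061 with empty vector, and its 3 groups did not overlap. It also fell with ETV6-NCOA2 (-0.34, limma adjusted p = 0.0231), and in the direct comparison Npm1 (0.31) and Eef1g (0.42) rose in ETV6-NCOA2 over KAT6A-NCOA2.

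Of 17 genes listed for mTORC1, 4E-BP, LARP1 and the Rps6kb and Rps6ka kinases, 3 rose with KAT6A-NCOA2 and 1 fell, with a median of 0.02. That share is near the 25.4% of all genes called in either direction, and none was called with ETV6-NCOA2. The mTORC1 activator Rheb (0.31), the translation repressor Eif4ebp1 (0.39) and the kinase gene Rps6ka3 (0.56) rose, and the kinase gene Rps6ka1 fell (-0.34). The Rps6ka kinases are distinct from the S6 kinases that mTORC1 drives, which the Rps6kb genes encode. Among 8 chaperones and binding partners of single ribosomal proteins, Grwd1 (-0.41), which escorts RPL3, and Bop1 (-0.43), which matures the 60S subunit, fell, and the p53 ligase Mdm2 rose (0.38). Of 8 growth regulators and RNA polymerase I genes, 5 fell with KAT6A-NCOA2 (62.5%, against 13.7% of all genes): Myc (-0.75), Polr1a (-0.55), Polr1b (-0.36), Ncl (-0.42) and Fbl (-0.58). Myc, a direct activator of ribosomal protein genes, had 1049, 1186 and 1201 normalized counts with ETV6-NCOA2, 817, 931 and 941 with KAT6A-NCOA2, and 1619, 1359 and 1560 with empty vector, and fell with ETV6-NCOA2 too (-0.40, limma adjusted p = 0.0453). Its groups did not overlap.

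The mitochondrial ribosome gave a median nearer 0. Of its 78 protein genes, 8 fell with KAT6A-NCOA2 (10.3%, against 13.7% of all genes) and 1 rose (11.6% of all genes did), with a median of -0.11. In 20 the libraries lay apart and lower (25.6%, against 21.7% of all genes), so these counts lie near or below the shares of all genes. Mrps28 (-0.44), Mrpl18 (-0.41), Mrpl19 (-0.39) and Mrps12 (-0.39) were among those that fell, and Mrpl52 rose (0.30). Their summed share of normalized counts was 0.186% with ETV6-NCOA2, 0.171% with KAT6A-NCOA2 and 0.207% with empty vector. Whether the lists differ from each other was not tested.

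Genes of cell division and of cell types were counted beside the members. Of 16 cell division genes, 15 fell with KAT6A-NCOA2 and 10 with ETV6-NCOA2. Their summed level lay between 14475 and 15858 normalized counts with ETV6-NCOA2, 10181 and 12180 with KAT6A-NCOA2, and 19380 and 28943 with empty vector. Of 12 macrophage genes 6 rose with KAT6A-NCOA2 and 1 with ETV6-NCOA2, and their share of all counts lay between 4.52% and 5.965% with ETV6-NCOA2, 6.47% and 7.27% with KAT6A-NCOA2, and 3.55% and 5.23% with empty vector. Empty vector replicate 2, the empty vector library with the lowest member share, also had that group's highest macrophage share, Spp1 included, and lowest cell division share. Spp1 alone took 0.543%, 2.07% and 0.914% in empty vector replicates 1, 2 and 3. It averaged 2.26% with ETV6-NCOA2, 3.49% with KAT6A-NCOA2 and 1.18% with empty vector, where the macrophage sum averaged 5.43%, 6.96% and 4.30%. Differences in the macrophage sum between these libraries and groups thus rest largely on Spp1. Of 8 progenitor genes, KAT6A-NCOA2 libraries had 3 lower and 1 higher past the test, and ETV6-NCOA2 libraries had 2 lower. Among 12 genes of mast cells and basophils 9 fell and 1 rose with KAT6A-NCOA2, and all 10 neutrophil granule genes tested, 6 of 9 erythroid genes tested and 1 of 5 lymphoid genes tested fell. With ETV6-NCOA2, where no member was called, 5 of those 12, 4 of the 10 neutrophil granule genes, 3 of the 9 erythroid genes and 1 of the 5 lymphoid genes fell, and 2 lymphoid genes rose. Of 9 mitochondrially encoded transcripts on the list 6 were tested, and none was called with either fusion. The part of these genes' cells in the members' lower level was not tested.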

How the data were processed

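The deposited table gives, for 17266 genes by symbol, a normalized count (a signal that the authors scaled by 1 factor per library) in each of 9 libraries. The submitters' processing notes list STAR 2.4.2a, HTSeq, cutadapt and DESeq2 with the GRCm38 build, in no order. How multi-mapped reads were treated is not given in the sources used here. All values (100%) were whole multiples of the value of 1 read within 0.01 normalized counts, so reads could be recovered, 17.1 to 20.4 M per library. The members, lists and tests were chosen with earlier results of these data known.

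The main test was limma 3.58.1 with eBayes and a trend, in R 4.3.3, on log2(normalized count + 1), a scale that understates the change of low genes. All 9 libraries entered 1 model without a block, for genes with at least 10 in at least 3 libraries, with Benjamini-Hochberg adjustment over 13750 genes and a threshold of 0.05. It was checked on simulated data. On recovered reads, edgeR 4.0.16 called 26 members for KAT6A-NCOA2 against empty vector and none in the other comparisons, and DESeq2 1.42.0 called 26 there and 1 in each of the others.

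Lengths and coordinates came from GENCODE M21 on GRCm38, with the APPRIS principal transcript, or the longest of several. RefSeq GRCm38.p6 start sites matched 65 of the 86 members. Genes named are up to 10 that passed in each direction per comparison, or 3 by lowest p where none did, the 5 highest and lowest per length, the paralogs, the 3 most and least variable with empty vector, and textbook members. Others are named to complete a count or as extremes and were chosen after their values were seen. A few genes are not reported here but enter all counts.

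Across genes, the deviations of equally numbered ETV6-NCOA2 and KAT6A-NCOA2 libraries from their group means correlated at 0.30, 0.20 and 0.29, so the blocked value stands beside that comparison. Alternatives were other scalings and pseudocounts, no filter, 6 libraries, the replicate block and leaving out each library.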

Additional observations from a re-analysis of the deposited data

How the results depend on the processing

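For KAT6A-NCOA2 against empty vector, the 23 members that fell became 14 without the filter on low values, where 1868 of 17266 genes fell. The 23 became between 1 and 35 when each library was left out in turn, where 1148 to 2150 of all genes fell, against 1889 in the main fit. Scaled to the members' mean, which removes their common shift by construction, 1 member fell and 1 rose. Upper-quartile scaling gave 29, the 6 libraries of the 2 groups alone 22 (18 of the 23), and pseudocounts of 0.1 and 5 gave 23. In the same order, 2008, 1754, 1884 and 1904 of all genes fell. Scaling to the members' mean moved the median of all genes to 0.22 and its calls to 4562 higher and 1194 lower, against 1599 and 1889. It gave member medians of 0.024 for ETV6-NCOA2 and 0.0019 for KAT6A-NCOA2 against empty vector, and 0.0078 between the fusions. With ETV6-NCOA2 against empty vector, DESeq2 called 1 member lower, beside 646 of all genes. Between the fusions, the replicate block and DESeq2 each called 1 member higher, beside 732 and 633 of all genes. Leaving out libraries gave between 0 and 1 member higher, beside 159 to 677 of all genes. In the comparisons with empty vector equal replicate numbers correlated between -0.08 and 0.39, and unequal numbers between -0.33 and 0.25. Whether equal numbers mark a shared origin cannot be told from the labels. The block gave 28 members lower with KAT6A-NCOA2 and none with ETV6-NCOA2. Over all genes it called 530 higher and 725 lower with ETV6-NCOA2 against empty vector, beside 140 and 250 without it. With KAT6A-NCOA2 against empty vector the block called 1982 higher and 2155 lower, beside 1599 and 1889 without it. Exon union lengths gave a median member level of 549 per kb, against 1149. Between the fusions the difference of Rpl10a ranged from -0.37 to 0.07 when libraries were left out, turning positive (0.068) without ETV6-NCOA2 replicate 1. The cause of these changes was not tested. In the main fit none of the 16 members under 100 normalized counts was called in any of the 3 comparisons. With KAT6A-NCOA2 against empty vector their median SE was 0.232. In that comparison Rps29 was called lower with the replicate block (limma adjusted p = 0.0467) and with the 6 libraries alone (0.0465). It was also called without ETV6-NCOA2 replicate 1 (0.0306) and without empty vector replicate 2 (0.0347), where Rpl21 was called too (0.0382).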
